A study of Drosophila melanogaster with 24 samples.

Results

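The effect of the K36R substitution in histone H3.3 was examined in heads of young male flies, aged 0 to 2 days. The comparison set 2 H3.3BK36R libraries, replicates 1 and 3, against 3 H3.3Adelta libraries, replicates 1 to 3, and so used 5 of the 24 head libraries of the series. Replicate 2 of young male H3.3BK36R was left out because it carried male reproductive transcripts at far higher levels than any other library. Of the 17606 genes in the table, 12841 had at least 10 normalized counts in at least 3 of the 24 libraries and were tested.

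The series covers both genotypes in young and old flies of both sexes, with 3 libraries of whole heads for each combination, each made from 10 to 25 flies. RNA depleted of ribosomal RNA was sequenced as paired reads of 100 nt. By the study's description, flies of both genotypes were null for H3.3A, through the allele H3.3A2x1 over the deficiency Df(2L)Bsc110, which removes further genes on one homologue. They differed in H3.3B on the X chromosome, described as the only functional H3.3 gene left, which carried arginine in place of lysine 36 in H3.3BK36R flies and the unmutated sequence in H3.3Adelta flies. H3.3Adelta was therefore the control, and it was not a wild type. All X chromosomes also carried y and w mutations. A male has a single X chromosome, so the H3.3B allele and anything else that differed between the X chromosomes of the stocks cannot be told apart in these heads.

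Histone H3.3 is the variant of H3 that is placed into chromatin outside replication, mainly at transcribed genes and at some silent repeats. It accumulates in cells that no longer divide, such as neurons. Lysine 36 of H3 is methylated along transcribed genes by the enzymes NSD, Ash1 and Set2, and this mark has been tied to elongation, to the removal of acetyl groups from histones and to the limiting of Polycomb silencing. Replacing the lysine with arginine keeps the positive charge and prevents methylation and acetylation at that position.

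Between 27948796 and 37358270 reads were counted on genes in the 5 libraries. Neither H3.3 gene was called in the test used throughout, limma on log2(normalized count + 1) with Benjamini-Hochberg adjustment. His3.3B, which the substitution does not remove, had 23802 and 18412 normalized counts in H3.3BK36R heads and 23036, 22496 and 21389 in H3.3Adelta heads (log2 difference -0.09, adjusted p = 0.747). His3.3A had 374 and 361 normalized counts in H3.3BK36R heads and 403, 368 and 308 in H3.3Adelta heads. Reads were counted at His3.3A in all 5 libraries, although the flies are described as null. Nepl3 overlaps His3.3A on the opposite strand, and the methods do not describe the strand setting. Whether the reads come from the His3.3A transcript, or yield protein, cannot be read from counts. The levels of the H3.3 genes do not show which H3.3B allele a library carried. Both genotypes held the male-specific dosage compensation RNA roX1 at 39681 to 60933 normalized counts, as the label of male heads requires.

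Replicate 3 of H3.3BK36R stood apart from the other 4 libraries. Its Yp1 level, a yolk protein transcript of the female fat body, was 56504 normalized counts, against 1271 in replicate 1 and 991, 1199 and 1282 in H3.3Adelta heads. Yp2 and Yp3 showed the same pattern, with 35935 and 49416 normalized counts in replicate 3. The summed level of the 16 neuronal markers was 268216 normalized counts in replicate 3, against 692138 in replicate 1 and 680797 to 721411 in H3.3Adelta heads, and all 16 were lower in replicate 3 than in replicate 1. Long transcripts were low in replicate 3 as well. Genes with over 6 kb of exon had a median log2 difference from the H3.3Adelta mean of -0.48 in replicate 3 and 0.01 in replicate 1, while genes under 1 kb had medians of 0.27 and -0.02. The 2 H3.3BK36R libraries also lay further apart than replicates of the control, with a chi-square of 285.3 averaged over genes, against 33.5 to 84.1 for pairs of H3.3Adelta libraries. The numbers of genes with a read were 13910 and 15398 in the H3.3BK36R libraries, against 13753, 16086 and 13795 in the H3.3Adelta libraries.

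H3.3BK36R heads differed from H3.3Adelta heads at 559 genes at an adjusted p below 0.05, which is 4.35% of those tested. Of these, 229 (1.78%) were higher and 330 (2.57%) were lower. With an absolute log2 fold change above 1 as well, 174 genes (1.36%) were called, 103 (0.802%) higher and 71 (0.553%) lower, and 30 of all calls exceeded 8-fold, 23 higher and 7 lower. The higher genes moved alike in both H3.3BK36R libraries, with a median log2 difference of 0.77 in replicate 1 and 0.92 in replicate 3. The lower genes did not, since their medians were -0.28 and -0.88, and at 202 of the 330 the difference in replicate 3 was more than 2 times that in replicate 1. Among genes called over 2-fold the medians were 1.94 and 1.96 for the higher genes and -1.37 and -1.70 for the lower genes. The test favours genes at which replicates lie close, so this likeness is partly built into the calls. At 6 of the 103 higher and 8 of the 71 lower genes the difference in replicate 3 was more than 2 times that in replicate 1. Lower calls were common at long genes, 78 against 7 higher calls among 1002 genes with over 6 kb of exon, and rare at short ones, 29 against 59 among 2682 genes under 1 kb. The part of library quality and of the added tissue signal in these calls was not tested.

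**Figure D1:**
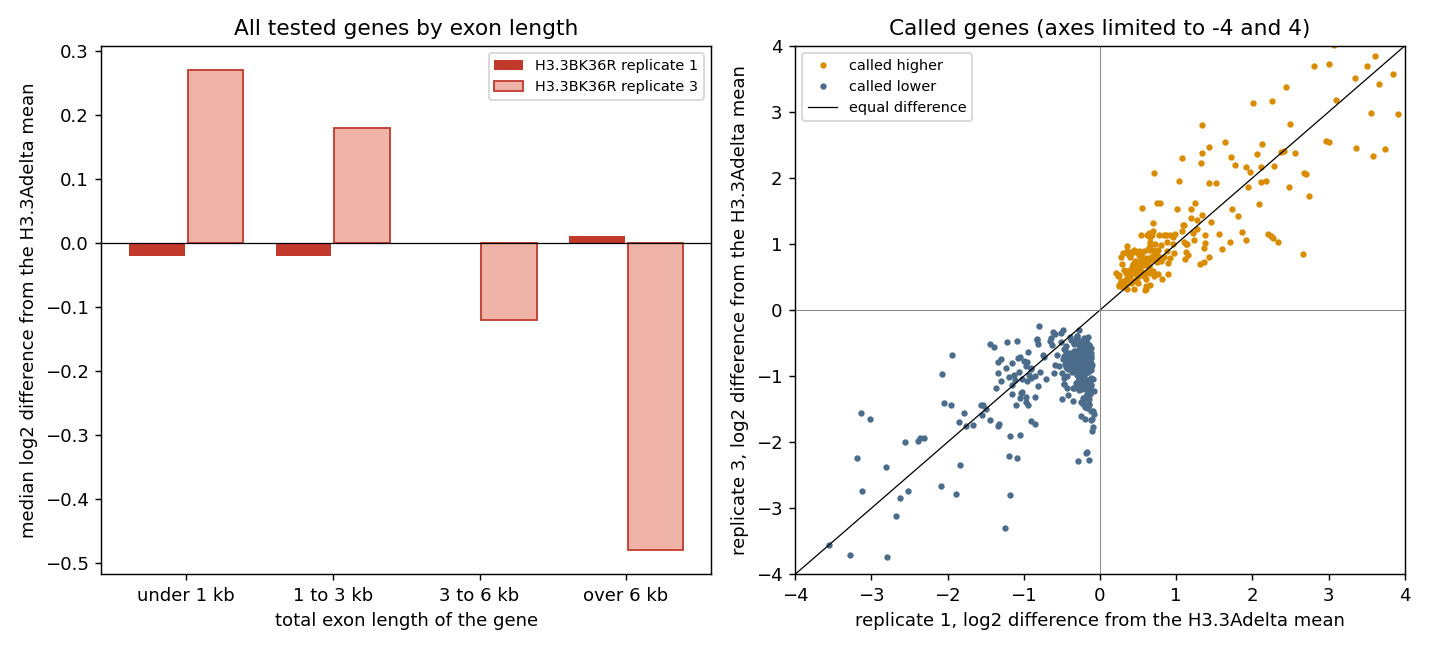
Differences of H3.3BK36R replicates 1 and 3 from the H3.3Adelta mean on the log2(normalized count + 1) scale, as medians over all tested genes by total exon length (left) and for each called gene (right, with genes beyond 4 on either axis outside the frame). Replicate 1 stays within 0.02 of 0 in every length class while replicate 3 runs from 0.27 to -0.48, and the called lower genes form a cloud far below 0 in replicate 3 and close to 0 in replicate 1.

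The counts depended on single libraries. Without replicate 3 of H3.3BK36R 117 genes were called, 94 of them among the 559, and 81 over 2-fold. Without replicate 1 there were 2165 and 517, and without H3.3Adelta replicate 1, 2 or 3 there were 237, 300 and 226 calls, with 103, 142 and 117 over 2-fold. A comparison with replicate 2 in place of replicate 3, chosen after seeing the data, called 705 genes (5.49%), of which 374 were among the 559, and 116 of the 174 were again over 2-fold. Replicate 2 also had a skew by exon length, with median log2 differences of 0.27 under 1 kb and -0.20 over 6 kb. The share of higher genes among the calls was 40.97%, against 65.1% with edgeR's quasi-likelihood test on the recovered reads (272 higher and 146 lower). It was 42.4% with DESeq2. Of the 24 genes named by the size of their change, 17 were called without replicate 3, 18 with replicates 1 and 2, and 22 with edgeR.

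The genes that differed most in level were on the X chromosome. CG14419 had 1728 and 1854 normalized counts in H3.3BK36R heads, against 3.04, 2.82 and 1.80 in H3.3Adelta heads. The log2 fold change was 8.99 with a standard error of 1.16 and limma gave an adjusted p of 1.3e-04. CG3588 had 1435 and 1552 normalized counts in H3.3BK36R heads and 1.52, 0.941 and 5.404 in H3.3Adelta heads (log2 fold change 8.89, adjusted p = 4.29e-05). Both genes were near silent in control heads and moderately expressed in both H3.3BK36R libraries. They lie on X of dm6, CG14419 from 2885186 to 2885914 and CG3588 from 2919770 to 2924426, inside the long gene kirre (2740384 to 3134532), which encodes an adhesion protein of muscle and eye cells. CG14416, CG14418 and CG3526 in the same interval had no read in any of the 3 H3.3Adelta libraries. Against a floor of 3 reads per library they were at least 4.12-fold, 7.32-fold and 2.25-fold higher in H3.3BK36R heads. At kirre itself the levels were 1656 and 1098 normalized counts in H3.3BK36R heads and 1156, 1142 and 1242 in H3.3Adelta heads, so that the groups overlapped and it was not called. CG3603, also inside kirre (2948034 to 2949120), went the other way. It had 105 and 113 normalized counts in H3.3BK36R heads and 327, 385 and 229 in H3.3Adelta heads (log2 fold change -1.48, adjusted p = 0.019). CG14416, CG14418, CG3526, kirre and CG3603 were chosen after their values were seen.

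At the same end of the X, w (white) had 103 and 85.5 normalized counts in H3.3BK36R heads, against 6.84, 6.59 and 5.404 in H3.3Adelta heads. This transporter of eye pigment precursors, from 2790599 to 2796466 on the minus strand, was 3.71 higher on the log2 scale (standard error 0.49, adjusted p = 1.4e-04). It was the 1 called gene among the 21 of eye pigment and pteridine synthesis (4.76%, against 4.35% of all tested genes). All flies here carried w mutations, and w lies inside kirre on the opposite strand. The name of the deposited table carries a tag that reads as counting on the forward strand, which would keep reads of w, CG14416, CG14418 and CG14419 apart from those of kirre, and the methods and protocols do not describe the setting. The level of kirre did not follow theirs. CG3588, CG3526 and CG3603 overlap kirre on its own strand.

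CG2209 showed the sharpest loss. It had no read in either H3.3BK36R library and 117, 106 and 99.1 normalized counts in H3.3Adelta heads. Against a floor of 3 reads per library its level was at least 40.1-fold lower in H3.3BK36R heads. CG32523 had 27.2 and 8.96 normalized counts in H3.3BK36R heads and 592, 748 and 492 in H3.3Adelta heads (log2 fold change -5.17, adjusted p = 1.4e-04). The genotypes were far apart at both genes. Genes named by size were taken only where libraries did not overlap between genotypes. Further X-linked losses among the largest were CG32572, CG1494, the pseudogene CR32745 and Frq1, a calcium sensor of the synapse. Frq1 had 5476 and 1321 normalized counts in H3.3BK36R heads, against 13462, 12102 and 13402 in H3.3Adelta heads, and its log2 fold change of -2.27 was smaller without replicate 3, at -1.24. Pdcd4, whose mammalian counterpart restrains translation initiation, had 6496 and 4828 normalized counts in H3.3BK36R heads and 17292, 15100 and 16840 in H3.3Adelta heads (log2 fold change -1.55, adjusted p = 1.4e-07). Chosen after its values were seen, it was among the genes with the smallest p.

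Further increases on the X chromosome lay outside the kirre interval. At lncRNA:CR43960, 76.7 and 81.4 normalized counts in H3.3BK36R heads stood against 6.84, 8.47 and 9.01 in H3.3Adelta heads, and CG2750, which overlaps it, had 193 and 80.6 against 13.7, 31.1 and 8.11. Of 7 X-linked eggshell genes, normally made by the follicle cells of the ovary, 3 (42.9%) were higher, against 1.78% of all tested genes. This list was drawn up after values were seen. The vitelline membrane gene fs(1)M3 had 97.1 and 65.1 normalized counts in H3.3BK36R heads and 3.80, 17.9 and 5.404 in H3.3Adelta heads (log2 fold change 3.27, adjusted p = 0.00935). The chorion genes Cp7Fb and Cp7Fc were 1.75 and 2.91 higher on the log2 scale, with adjusted p of 0.042 and 0.0366. Of the 21 ovary markers, which include other eggshell genes, 0 were called with limma, edgeR or DESeq2, with 2 below an unadjusted p of 0.05. The summed level of these markers was 4908 and 3328 normalized counts in H3.3BK36R heads against 4734 to 4843 in H3.3Adelta heads. The noncoding RNA lncRNA:CR45625 had 50.5 and 44.0 normalized counts in H3.3BK36R heads and no read in the 3 H3.3Adelta libraries, and was at least 18.2-fold higher. All of these except fs(1)M3 were picked once their values were known.

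**Figure D2:**
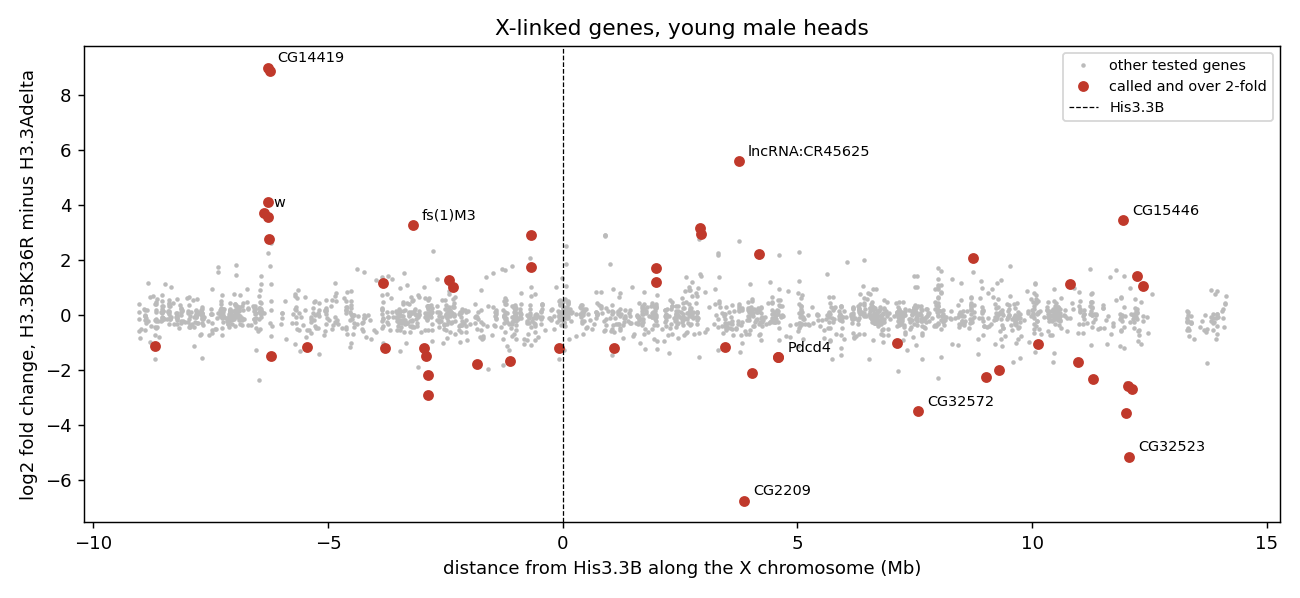
Log2 fold change of each tested X-linked gene, H3.3BK36R minus H3.3Adelta in young male heads, against its distance from His3.3B in Mb. The 51 genes called over 2-fold are spread along the chromosome, with CG14419, CG3588, w and their neighbours on one side of His3.3B and CG2209 and CG32523 on the other.

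On the X chromosome 134 of 2066 tested genes were called (6.49%), against 421 of 10664 on the autosomes (3.95%). Over 2-fold these were 51 (2.47%) and 120 (1.13%), and over 8-fold 13 and 16. By contrast to the autosomes as a whole, where higher genes outnumbered lower ones over 2-fold, 23 X-linked genes were higher and 28 lower. The X-linked calls were not gathered at His3.3B, as 8 of 370 tested genes (2.16%) within 2 Mb of it were called over 2-fold. The median log2 fold change of all X-linked genes was -0.02, against 0.01 over all tested genes. On chromosome 4, which is largely heterochromatic, 2 genes were higher and 7 lower among 106 tested (8.49%). Within 2 Mb of the centromeres 4 were higher and 11 lower among 176 (8.52%), while 4.35% of all tested genes were called. On chromosome 4 the median difference was 0.07 in replicate 1 and -0.50 in replicate 3, and near the centromeres it was 0.0 and -0.06. Of the 13 tested Y-linked genes 1 (7.69%) was called. This was kl-2, a dynein heavy chain of the sperm tail, with 43.7 and 48.9 normalized counts in H3.3BK36R heads and 0.760, 16.0 and 1.80 in H3.3Adelta heads (adjusted p = 0.0372). It was chosen after its values were seen, and edgeR gave an adjusted p of 0.105.

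Among autosomal genes, the largest increase was at Sgs3 on 3L, a glue protein that larval salivary glands secrete before pupation. Sgs3 had 265 and 331 normalized counts in H3.3BK36R heads, against 6.84, 3.77 and 2.702 in H3.3Adelta heads (log2 fold change 5.85, standard error 0.91, adjusted p = 7.9e-04). Its neighbour Sgs7, chosen after its values were seen, had 44.7 and 44.8 normalized counts in H3.3BK36R heads and 0.760, 4.71 and 0.901 in H3.3Adelta heads (adjusted p = 0.0198). In the library that was left out, the levels were 19.3 normalized counts for Sgs3 and 1.13 for Sgs7, so that library did not share the level of replicates 1 and 3. With replicates 1 and 2 compared instead, Sgs3 kept an adjusted p of 0.0443 and Sgs7 had 0.372.

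Cuticle genes moved in both directions. Among 85 tested cuticular protein genes 7 were higher and 3 lower (11.8% called, against 4.35% of all tested genes), with a median log2 fold change of 0.24. Cpr49Ac, a structural protein of chitinous cuticle, had 468 and 533 normalized counts in H3.3BK36R heads and 45.6, 30.1 and 47.7 in H3.3Adelta heads (log2 fold change 3.60, adjusted p = 7.9e-04). In the left-out library it had 62.4, and with replicates 1 and 2 its adjusted p was 0.096. Cpr49Ah had 156 and 292 normalized counts in H3.3BK36R heads against 59.2, 52.7 and 74.8 in H3.3Adelta heads, and Vajk1 had 2017 and 1708 against 745, 613 and 1009. These 3 genes were higher in both H3.3BK36R libraries with no overlap, a pattern held by 15.4% of all tested genes. Ccp84Ag was lower instead, with 72.8 and 62.7 normalized counts in H3.3BK36R heads and 544, 454 and 309 in H3.3Adelta heads (log2 fold change -2.63, adjusted p = 0.00731). Chosen after their values were seen, the chitinase gene Cht10 rose (log2 fold change 2.03, adjusted p = 2.52e-05), and of the 15 tested Osiris genes Osi2 rose and Osi9 fell. Calls thus made up 13.3% of the Osiris genes, against 4.35% of all tested genes.

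Other increases were in genes with unrelated roles. The synaptonemal complex gene c(3)G, which pairs meiotic chromosomes, had 561 and 357 normalized counts in H3.3BK36R heads and 90.4, 94.1 and 72.0 in H3.3Adelta heads (log2 fold change 2.38, adjusted p = 1.05e-06). XRCC1, a scaffold of DNA strand break repair, had 329 and 293 normalized counts in H3.3BK36R heads and 151, 165 and 110 in H3.3Adelta heads. The groups did not overlap at either gene, with H3.3BK36R higher as at 15.4% of all tested genes, and both were chosen after their values were seen. By size the list also held asRNA:CR45822, antisense to the insulator gene CTCF, at 97.1 and 55.4 normalized counts in H3.3BK36R heads against 0.760, 2.82 and 0.901 in H3.3Adelta heads. CTCF itself had 876 and 801 normalized counts in H3.3BK36R heads and 848, 839 and 697 in H3.3Adelta heads and was not called. The receptor gene mthl6, the pseudogene CR43086, CG15446 and CG11349 completed it, with log2 fold changes of 4.31, 3.60, 3.44 and 3.37. Also on it was fit, a gene of the head fat body that is far higher in females, with 186 and 358 normalized counts in H3.3BK36R heads and 19.8, 43.3 and 10.8 in H3.3Adelta heads (adjusted p = 0.0376). Unlike the yolk protein genes, fit was higher in replicate 1 as well.

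**Figure D3:**
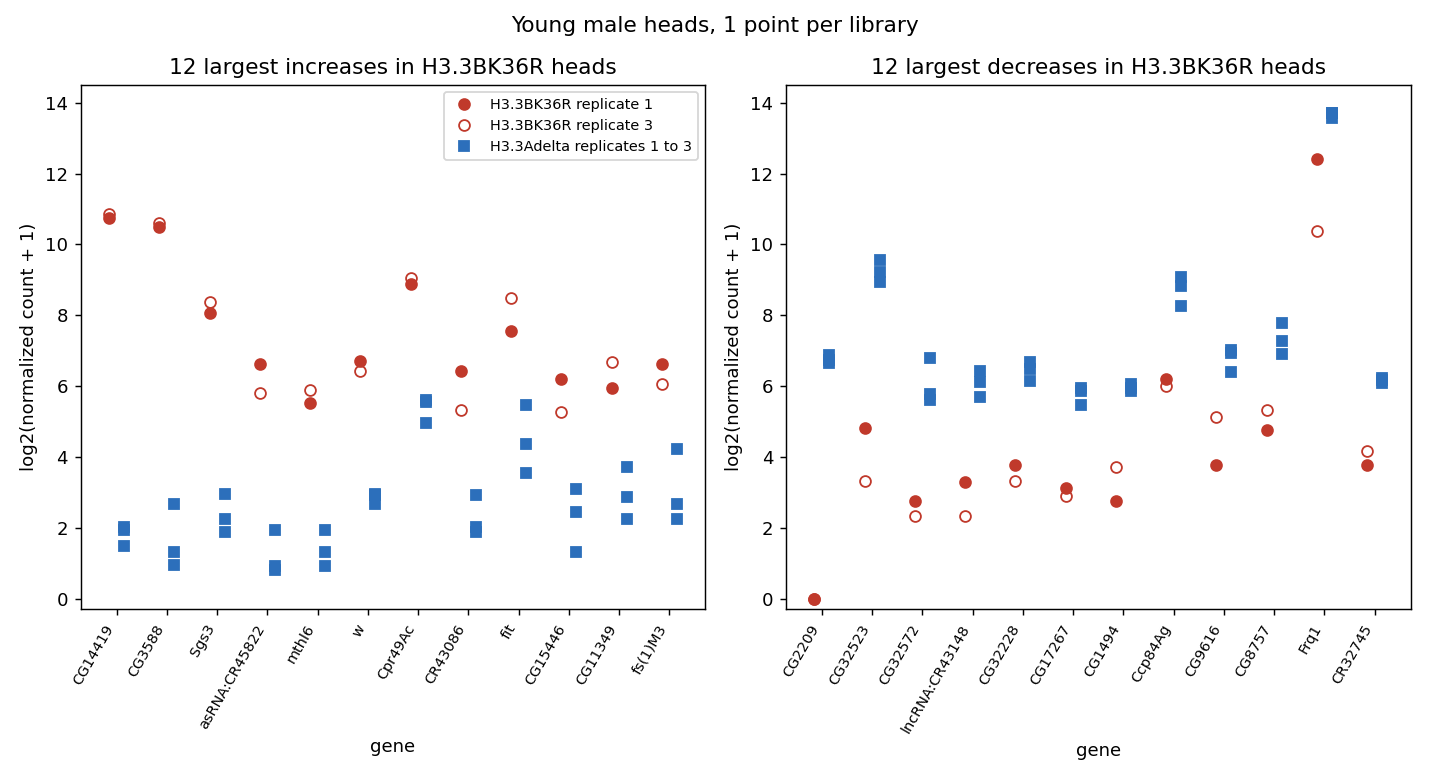
Levels of the 12 genes with the largest increases (left) and the 12 with the largest decreases (right) among genes called over 2-fold with a mean of at least 50 normalized counts in one genotype, on the log2(normalized count + 1) scale, with 1 point per library of young male heads. Genes were taken only where the 2 H3.3BK36R libraries did not overlap the 3 H3.3Adelta libraries, so the separation at each gene follows from the choice. CG2209 is at 0 in both H3.3BK36R libraries.

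Calls in detoxification and chemosensory families were increases. Their shares were 4.88% of cytochrome P450, 2.94% of glutathione transferase, 3.13% of UDP-glycosyltransferase, 6.45% of odorant-binding protein and 1.37% of chemoreceptor genes. Of all tested genes 1.78% were called higher and 4.35% in either direction. Each family held few calls, and whether any share stood apart was not tested. Single members are given as a description. Of 82 tested cytochrome P450 genes, which oxidize toxins and hormones, 4 were higher and 0 lower, with a median log2 fold change of 0.19. Cyp9f3 had 313 and 300 normalized counts in H3.3BK36R heads and 134, 139 and 126 in H3.3Adelta heads (adjusted p = 3.54e-05). Cyp311a1 had 451 and 552 in H3.3BK36R heads and 265, 234 and 255 in H3.3Adelta heads (adjusted p = 2.02e-04). The other called genes were Cyp6a13 and Cyp28a5, and 1 gene each of the glutathione transferases (GstD10, 34 tested) and UDP-glycosyltransferases (Ugt35E2, 32 tested). Among 31 odorant-binding protein genes Obp99d and Obp19d were higher, and Obp19d, an abundant antennal protein, had 34862 and 36003 normalized counts in H3.3BK36R heads against 23358, 24666 and 14916 in H3.3Adelta heads. Of 73 chemoreceptor genes the ionotropic receptor Ir41a was called, with 100 and 64.3 normalized counts in H3.3BK36R heads and 19.8, 19.8 and 12.6 in H3.3Adelta heads. In the eye, ninaB, which cleaves carotenoids to make the chromophore of rhodopsin, was higher (log2 fold change 0.74, adjusted p = 0.00211). The sodium-calcium exchanger Calx was lower (-0.49, adjusted p = 0.0372). They were the calls among 30 phototransduction genes (6.67%, against 4.35% of all tested genes). None of the 7 rhodopsins or of the 13 photoreceptor markers was called, and ninaE, the main rhodopsin, had 569370 and 506236 normalized counts in H3.3BK36R heads and 628232, 641154 and 481810 in H3.3Adelta heads.

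The autosomal decreases named by size were smaller than those of CG2209 and CG32523. CG32228 had 12.6 and 8.96 normalized counts in H3.3BK36R heads and 69.1, 103 and 89.2 in H3.3Adelta heads (log2 fold change -2.90, adjusted p = 0.00563). CG8757 had 26.2 and 39.1 in H3.3BK36R heads and 155, 220 and 119 in H3.3Adelta heads (log2 fold change -2.28, adjusted p = 3.33e-04). The noncoding RNA lncRNA:CR43148, CG17267 and CG9616 followed the same pattern, with log2 fold changes of -3.27, -2.74 and -2.33. In the left-out H3.3BK36R library CG32228 stood at 135 normalized counts and the X-linked genes CG32572 and CG1494 at 355 and 117, none of them low, while CG8757, CG32523 and CG2209 stood at 28.3, 26.1 and 0. The haemocyte and eye factor lz had 226 and 265 normalized counts in H3.3BK36R heads and 432, 555 and 391 in H3.3Adelta heads (adjusted p = 0.019). It was the 1 call among 14 haemocyte markers (7.14%). Among Polycomb and Hox genes the Polycomb subunit esc was lower (log2 fold change -0.69, adjusted p = 0.017), 1 of 20 (5.0%). It had 720 and 402 normalized counts in H3.3BK36R heads and 851, 828 and 921 in H3.3Adelta heads. Of all tested genes 4.35% were called.

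A minority of neuronal markers was called lower, and their difference lay mostly in replicate 3. Of 16 neuronal markers 4 (25.0%) were lower and 0 higher, while 2.57% of all tested genes were called lower. Their median log2 fold change was -0.71, and the median difference was -0.04 in replicate 1 and -1.40 in replicate 3. Syt1, the calcium sensor of transmitter release, had 52099 and 21526 normalized counts in H3.3BK36R heads and 57936, 54077 and 60679 in H3.3Adelta heads (log2 fold change -0.78, adjusted p = 0.0425). Syx1A, Appl and Syn were called in the same direction. The sodium channel gene para, not called and chosen after its values were seen, had 64680 and 9914 normalized counts in H3.3BK36R heads against 60482 to 62719 in H3.3Adelta heads, so replicate 1 was at the control level and replicate 3 was not. Without replicate 3 the adjusted p of Syt1, Syx1A, Appl and Syn was 0.509 to 0.815, and edgeR gave 0.0573 to 0.115. Syt1, Appl, Syn and Syx1A have 7190, 6383, 5803 and 4164 nt of exon. In replicate 3 the median log2 difference of all tested genes was -0.12 at 3 to 6 kb of exon and -0.48 over 6 kb. The part of exon length and library quality in these decreases was not tested. Fewer cells of a type and less RNA per cell cannot be told apart in whole heads either.

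Genes of transmitters and neuropeptides also included decreases. Of 17 genes for transmitter synthesis and transport 4 (23.5%) were lower and 0 higher, while 2.57% of all tested genes were called lower. These were VGlut, VAChT, Vmat and Tbh, which load glutamate, acetylcholine and monoamines into vesicles or make octopamine. VAChT and Vmat have over 6 kb of exon, a class with 78 lower calls among 1002 genes. VGlut had 9430 and 7464 normalized counts in H3.3BK36R heads and 11692, 11682 and 11705 in H3.3Adelta heads (log2 fold change -0.48, adjusted p = 0.00619). Of 38 neuropeptide genes 6 (15.8%) were lower and 0 higher. The tachykinin gene Tk had 1110 and 902 normalized counts in H3.3BK36R heads and 1596, 1750 and 1520 in H3.3Adelta heads (log2 fold change -0.69, adjusted p = 0.00176), and SIFa, made by a few neurons of the brain, had 196 and 326 against 448, 370 and 578. Nplp1 and Dh31 had log2 fold changes of -0.51 and -0.48. The median difference of the transmitter genes was -0.09 in replicate 1 and -0.34 in replicate 3, and that of the neuropeptide genes was -0.10 and -0.13. Without replicate 3, SIFa was the 1 gene of these 8 that was still called, with an adjusted p of 0.0437, and edgeR called VGlut, Vmat and Tk. With replicates 1 and 2 in place of 1 and 3, 5 transmitter and 6 neuropeptide genes were lower and 0 were higher, and Tk and SIFa were called with adjusted p of 0.00138 and 0.0013. Replicate 2 was itself low in neuronal markers, which summed to 533776.5 normalized counts, against 680797 to 721411 in H3.3Adelta heads. Of 17 glial markers axo and ltl were lower (11.8%, against 2.57% of all tested genes). The glial factor repo was not called, with 2166 and 2209 normalized counts in H3.3BK36R heads and 1999, 2162 and 2049 in H3.3Adelta heads.

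Immune effector genes had the most negative medians of the gene groups examined, -2.38 for 19 antimicrobial peptides and -0.84 for 21 Bomanins and other Toll effectors, and no call. Antimicrobial peptides and the Bomanins with other Toll effectors are secreted by the fat body under the Imd and Toll pathways when flies meet microbes. In H3.3BK36R heads 36 of the 40 tested genes had a negative log2 fold change, with a median of -1.45, and at 26 of the 40 both H3.3BK36R libraries were below all 3 H3.3Adelta libraries, against 13.2% of all tested genes. At an unadjusted p below 0.05 there were 13 genes, and the smallest adjusted p was 0.0627. edgeR called 0 of them, DESeq2 called 5, and limma with replicates 1 and 2 called 2. IBIN, a small peptide gene induced by infection, had 29.1 and 33.4 normalized counts in H3.3BK36R heads and 1423, 1557 and 2016 in H3.3Adelta heads (log2 fold change -5.68, standard error 1.72). DptA had 117 and 72.5 normalized counts in H3.3BK36R heads and 1933, 1399 and 817 in H3.3Adelta heads (log2 fold change -3.80, adjusted p = 0.195). Dro, the leading antimicrobial peptide by level, had 1408 and 791 in H3.3BK36R heads and 12358, 30993 and 3287 in H3.3Adelta heads (adjusted p = 0.137). BomS3, the leading Bomanin, had 14151 and 14272 normalized counts in H3.3BK36R heads and 37107, 32104 and 50586 in H3.3Adelta heads (adjusted p = 0.251). These 4 genes did not overlap between genotypes, and did not pass a test whose spread is shared over all 8 groups of the series. The left-out library was also low, with 12.5 normalized counts for IBIN and 29.5 for DptA. Of the 41 tested genes of Toll and Imd signalling 0 were called with limma or edgeR and 1 with DESeq2, with 7 below an unadjusted p of 0.05 and a median of 0.04. IBIN, DptA and the genes plotted were chosen after their values were seen.

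**Figure D4:**
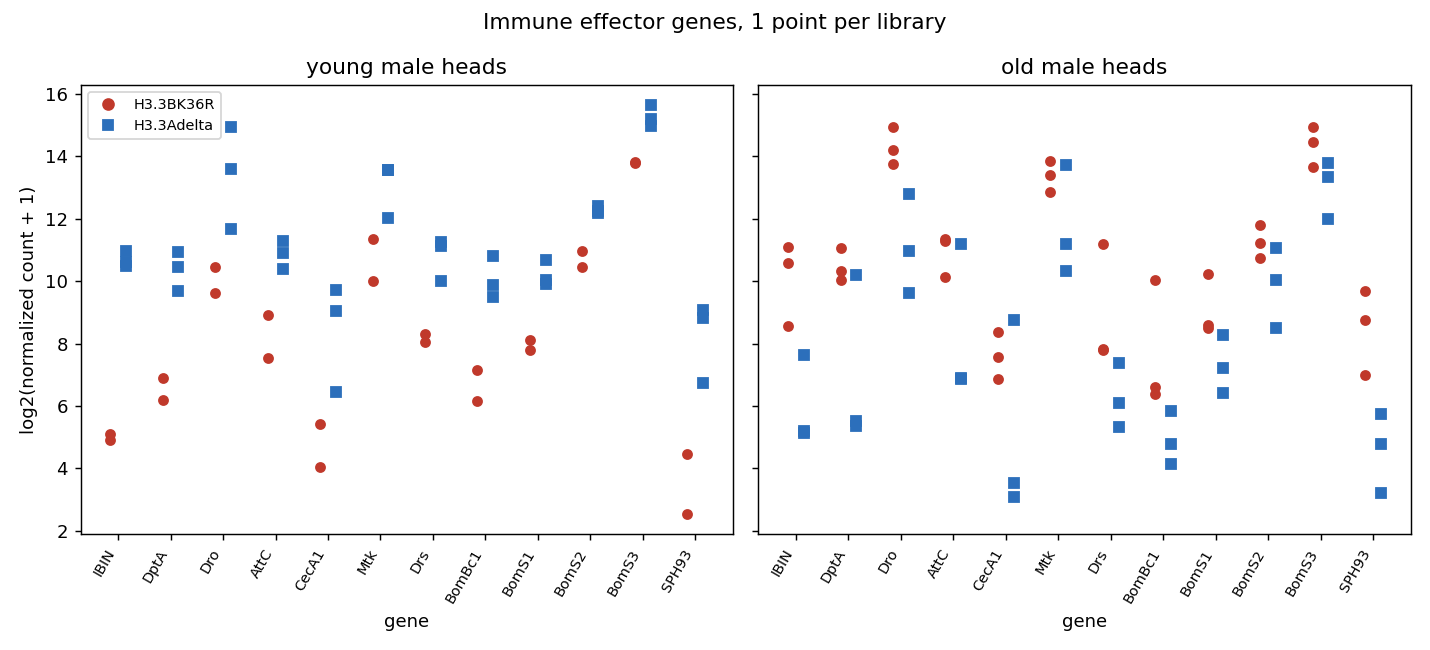
Levels of 12 selected immune effector genes in young (left) and old (right) male heads on the log2(normalized count + 1) scale, with 1 point per library, for 2 H3.3BK36R and 3 H3.3Adelta libraries of young heads and 3 of each in old heads. In young heads both H3.3BK36R libraries are below the H3.3Adelta libraries at each gene shown. In old heads the H3.3BK36R libraries are mostly the higher ones, with overlap between genotypes at some genes.

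In old males the same genes leaned the other way. Their median log2 fold change was 1.68, and limma called 2 of the 40 higher. IBIN had 1542, 2158 and 380 normalized counts in old H3.3BK36R heads against 34.3, 197 and 35.6 in old H3.3Adelta heads. Other members overlapped between genotypes, with old H3.3Adelta replicate 2 high. Mtk had 14690, 10792 and 7353 normalized counts in old H3.3BK36R heads and 1290, 13567 and 2327 in old H3.3Adelta heads. The old minus young difference of the genotype effect was above 0 at 38 of the 40 genes and below an unadjusted p of 0.05 at 28, but none passed adjustment over all genes, the smallest adjusted p being 0.128. In young females the median was -1.28.

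Genes of H3.3 deposition, lysine 36 methylation and heterochromatin gave no call in limma. Among 10 genes of H3.3 and its chaperones, 11 of the H3 lysine 36 methylation machinery and 20 heterochromatin proteins 0 passed, with medians of 0.04, 0.04 and -0.03. The elongation factor gene Spt6, the most abundant of the methylation group, had 2441 and 2444 normalized counts in H3.3BK36R heads and 2346, 2287 and 2414 in H3.3Adelta heads. Log2 fold changes in these groups ran from -0.63 to 0.36, 5 of the 40 genes were below an unadjusted p of 0.05, and edgeR and DESeq2 each made 1 call. Of 21 piRNA pathway genes 1 was called (4.76%, against 4.35% of all tested genes). This was AGO3, an Argonaute protein that silences transposons, which was higher. It had 44.7 and 42.3 normalized counts in H3.3BK36R heads and 9.87, 12.2 and 10.8 in H3.3Adelta heads (adjusted p = 0.0228). limma made no call among 26 heat shock and chaperone genes, 16 antioxidant genes, 27 ecdysone response genes, 32 lipid genes, 25 muscle markers or 52 gut genes, of which 31 were below an unadjusted p of 0.05, with 0 calls in edgeR and 3 in DESeq2. Cytoplasmic and mitochondrial ribosomal protein genes each had 2 increases, among 85 and 72 tested (2.35% and 2.78%). Of all tested genes 1.78% were called higher. The medians of the ribosomal protein genes, 0.27 and 0.23, came from replicate 3 (0.49 and 0.42) more than from replicate 1 (0.07 and 0.03). RpS14a had 5007 and 6749 normalized counts in H3.3BK36R heads and 3735, 3821 and 3728 in H3.3Adelta heads. The accessory gland and ejaculatory bulb list summed to 147 and 373 normalized counts in H3.3BK36R heads and 141, 875 and 140 in H3.3Adelta heads, so the groups overlapped.

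The large changes were mostly shared with the other sex and age. Libraries of those groups did not enter the young male fold changes. Their spread did enter the young male tests, as all 23 libraries were fitted together, so the shared calls are not independent. In young females 169 of the 174 genes over 2-fold (97.1%) had the same direction, against 65.8% of all tested genes. Of the 174, 98 (56.3%) were called over 2-fold there, which is 40.2% of the 244 young female genes (1.90% of all tested). In old males 166 of the 174 (95.4%) had the same direction, against 63.6% of all tested genes, and 102 (58.6%) were called over 2-fold, 24.2% of the 422 old male genes (3.29% of all tested). Genes over 2-fold in all 3 comparisons numbered 70, with 20 on the X chromosome. CG14419, CG3588, CG2209 and CG32523 were among these. The glue gene Sgs3 and the cuticle gene Cpr49Ac were not, with log2 fold changes of 0.65 and 1.497 in young females and 0.91 and 1.26 in old males, none of them called.

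**Figure D5:**
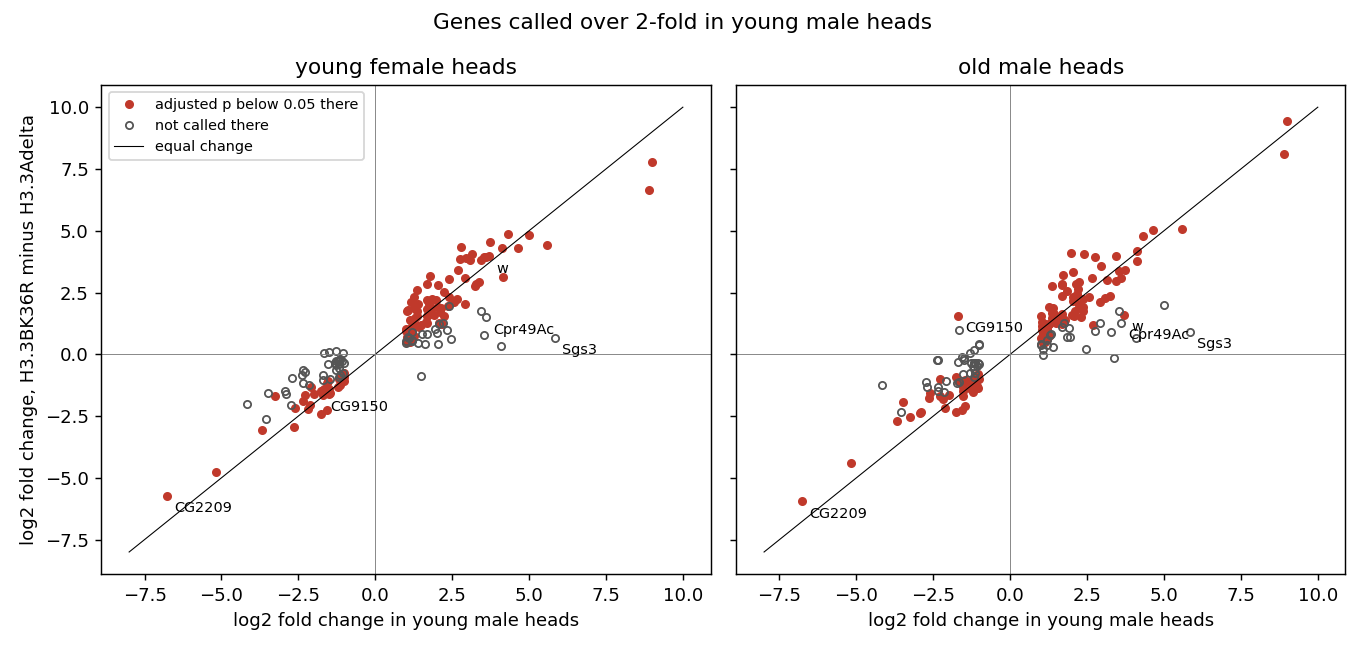
Log2 fold change of the 174 genes called over 2-fold in young male heads, set against the log2 fold change in young female heads (left) and old male heads (right), each H3.3BK36R minus H3.3Adelta. 169 points on the left and 166 on the right have equal sign, Sgs3 lies at 0.65 and 0.91 and Cpr49Ac at 1.497 and 1.26 in young females and old males without a call, and CG9150 is called with opposite signs in young and old males.

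The difference between sexes was tested itself and gave 0 genes with limma, with 791 below an unadjusted p of 0.05, 0 with edgeR and 7 with DESeq2. Without replicate 3 of H3.3BK36R it gave 2 genes and without replicate 1 it gave 1003. The old minus young difference of the genotype effect in males was called at 22 genes (0.171%), 13 positive and 9 negative, against 3 without replicate 3 and 1086 without replicate 1. Of the 22, 5 were also called in young males. CG9150 had 17.5 and 8.14 normalized counts in young H3.3BK36R heads and 41.02, 38.6 and 44.1 in young H3.3Adelta heads, and in old males 112, 45.9 and 72.8 in H3.3BK36R heads against 18.0, 30.3 and 24.4 in H3.3Adelta heads. The groups did not overlap at either age, in opposite directions. ETHR, the receptor for ecdysis triggering hormone, had 212 and 136 normalized counts in young H3.3BK36R heads and 324, 292 and 272 in young H3.3Adelta heads (log2 fold change -0.80, adjusted p = 0.00266), and in old males, where 7.75% of all genes were called, its log2 fold change of 0.20 was not. The other 3 were CG7059, CG10345 and Acox3, an acyl-CoA oxidase gene. All 5 were chosen after their values were seen.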

How the data were processed

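The authors aligned reads to dm6 with STAR 2.7.7a, counted them on genes with featureCounts (Subread 2.0.3) and deposited normalized counts, a signal made by dividing each library's gene counts by its DESeq2 1.34.0 size factor over 24 libraries. Versions are from the submitters' processing notes. The annotation release is not given in the sources used here, and the strand setting is named only by a tag in the table's name that reads as forward strand. Whole reads were recovered for every value (tolerance 0.01) from the step that 1 read was worth in a library. Samples were grouped by their labels.

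limma 3.58.1 (R 4.3.3, with a trend in the prior variance) was fitted to log2(normalized count + 1) of 23 libraries in 8 groups, without young male H3.3BK36R replicate 2. Two-sided p-values were adjusted by Benjamini-Hochberg over 12841 genes. On this scale the change of genes at low level is understated. Folds against a group without reads used a floor of 3 reads per library, which covers counting error only. Gene positions came from Ensembl release 115, which matched 17527 of 17606 identifiers.

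Named genes were the 12 largest increases and decreases among genes called over 2-fold, without overlap between libraries and with a mean of at least 50 normalized counts, up to 4 called genes per list, 8 check genes and the leading gene of a list without a call. The genes, lists and tests were chosen with earlier results of these data known. Alternatives were other pseudocounts, filters and scaling, edgeR 4.0.16, DESeq2 1.42.0, subsets of libraries, library weights and a replicate block. The steps were tested on simulated data. No sequence tables were used here. Python 3.11.15, pandas 2.3.3 and matplotlib 3.10.9 were used for summaries.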

Additional observations from a re-analysis of the deposited data

Results flagged for a closer look

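The effect of genotype differed between old and young male heads at 22 genes in limma's test of the difference, at an adjusted p below 0.05. Among the genes named here the old minus young difference on the log2 scale was 3.26 for CG9150, 1.60 for CG7059, 0.99 for ETHR, 1.01 for l(2)41Ab, -1.07 for CG10345 and -1.27 for Acox3. In old males l(2)41Ab, chosen after its values were seen, had 847, 947 and 820 normalized counts in H3.3BK36R heads and 344, 344 and 355 in H3.3Adelta heads, while in young males it had 665 and 478 in H3.3BK36R heads and 427, 443 and 491 in H3.3Adelta heads. All of these differences rest on replicates 1 and 3 of young male H3.3BK36R, which differ from each other more than other replicate pairs do.

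Young male H3.3BK36R replicate 2, which was left out of the main comparison and used only in alternatives to it, held transcripts of other tissues above the level of the H3.3Adelta libraries. Its accessory gland and ejaculatory bulb markers summed to 143632 normalized counts, against 140 to 875 in young male H3.3Adelta heads. Its testis markers summed to 57172 normalized counts, against 21383 to 23272 in those heads.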

How the results depend on the processing

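In place of 559 calls, separate fits over all genes gave 880 with DESeq2, 1024 with all 24 libraries, 226 with the 11 male libraries, 74 with the 5 young male libraries alone and 45 with library weights. In place of 174 genes over 2-fold there were 69 with the 5 libraries, 32 with weights and 266 with replicates 1 and 2 of H3.3BK36R, a comparison added after seeing the data. Leaving out 1 library gave 117 to 2165 calls, 81 to 517 over 2-fold, 0 to 1003 for the difference between sexes and 3 to 1086 for the difference between ages, the extremes coming from the 2 H3.3BK36R libraries. The difference between sexes gave 7 genes with DESeq2 and 2 with replicates 1 and 2, and the difference between ages 94 with DESeq2, 4 with weights and 13 with replicates 1 and 2, in place of 0 and 22. The causes were not tested, beyond the smaller number of libraries in the subsets. Pseudocounts, filters and upper-quartile scaling kept all counts within 1.5 times. CG7059 reversed with replicates 1 and 2, to 0.36. A replicate block gave 586 calls and 191 over 2-fold. Whether the numbers pair the samples could not be decided from deviations from the group means. Those of replicates 1 correlated at 0.325 and those of replicates 3 at -0.092. With 2 H3.3BK36R libraries the deviations mirror each other, so H3.3Adelta replicate 1 gave 0.325 with replicate 1 and -0.325 with replicate 3. Depth limits genes under 10 normalized counts, which were not tested.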
